A study of Mus musculus with 576 samples.

Results

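The 10 genes described here are best known from nerve cells: Nefl, Nefm, Stmn2, Gap43, Syt6, Slitrk5, Grik1, Snap91, Camk2a and Pcp4l1. They were chosen by name because they had been seen among the leading genes of mesenchymal groups of these same cells, and they make up 10 of the 36658 gene rows of each count table. Their presence in mesenchyme is therefore what selected them, and their mesenchymal levels are given as a description. The study sequenced the RNA of single green cells sorted from the mouse dorsal pancreas at E12.5 (embryonic day 12.5), one cell per well of a 96-well plate, by Smart-seq2. In the Nkx2.5-Cre;mTmG and Nkx3.2-Cre;mTmG lines, Cre turns a membrane reporter from red to green for good, so that cells that once expressed the driver, and their descendants, are green. In the Prox1-GFP line the reporter follows Prox1 itself, which epithelial and endocrine cells of the pancreas carry. Each line gave 2 plates, 576 cells in all, and no embryo or litter is named in the labels, so that each line counts as 1 sample and the differences between lines have no replicate check.

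Neurofilament proteins (Nefl and Nefm, the light and medium chains) form the intermediate filaments of axons, and Stmn2 binds tubulin in growing neurites. Gap43 is a membrane protein of growth cones, Slitrk5 a transmembrane adhesion protein of synapses, Syt6 a synaptotagmin, Snap91 a clathrin coat adaptor of synaptic vesicles, Grik1 a kainate-type glutamate receptor subunit and Camk2a the alpha subunit of a calcium/calmodulin-dependent kinase. Pcp4l1 is a small relative of the calmodulin-binding protein Pcp4. Pancreatic endocrine cells share part of the neuronal gene repertoire, and the repressor REST (Rest) keeps many neuronal genes silent in other cell types.

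RefSeq stretches upstream of a gene start (GRCm38.p6) were at hand for 4 of the 10 genes, Syt6, Slitrk5, Snap91 and Pcp4l1. Those of Pcp4l1, Snap91 and Syt6 that overlap no annotated exon are shown, because these 3 genes went different ways across lines and states below. Each runs 5′ to 3′ on the gene's strand over 230 bases and ends 20 bases before the RefSeq start, and capitals mark each CG pair. The Pcp4l1 stretch lies at chr1:171196289-171196518 on the minus strand, the Snap91 stretch at chr9:86880729-86880958 on the minus strand and the Syt6 stretch at chr3:103574995-103575224 on the plus strand.
Pcp4l1: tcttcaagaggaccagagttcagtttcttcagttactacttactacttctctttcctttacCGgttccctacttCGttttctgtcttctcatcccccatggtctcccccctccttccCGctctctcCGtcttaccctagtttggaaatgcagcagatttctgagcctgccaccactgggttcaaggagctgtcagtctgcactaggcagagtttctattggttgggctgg
Snap91: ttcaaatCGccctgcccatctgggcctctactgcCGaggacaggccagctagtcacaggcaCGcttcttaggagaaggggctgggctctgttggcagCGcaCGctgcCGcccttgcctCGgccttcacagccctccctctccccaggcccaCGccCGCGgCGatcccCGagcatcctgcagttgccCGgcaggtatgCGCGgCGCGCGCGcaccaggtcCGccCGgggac
Syt6: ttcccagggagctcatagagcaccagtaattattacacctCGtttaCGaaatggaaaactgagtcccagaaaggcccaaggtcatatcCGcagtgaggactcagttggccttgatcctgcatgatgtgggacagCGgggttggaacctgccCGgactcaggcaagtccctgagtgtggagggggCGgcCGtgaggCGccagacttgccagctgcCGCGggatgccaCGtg
The Pcp4l1 stretch held 4 CG pairs and 50% G or C, the Syt6 stretch 11 and 58.3%, and the Snap91 stretch 21 and 70%. The median over all 32851 stretches was 5 pairs and 51.7%, and 12.9% of them held at least as many pairs as Snap91. Both strands of the 6 stretches of the 4 genes were searched for the TATA box TATAAA and for the REST half-sites GGACAGCGC and TTCAGCACC. None of the 3 motifs was present in them. Over all stretches, TATAAA was found in 11.8%, GGACAGCGC in 0.268% and TTCAGCACC in 0.289%.

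Of the 576 cells, 549 passed a minimum of 1000 genes and 100000 counts with no more than 30% of counts from mitochondrial genes. The median depth per cell was 1056670 counts in the Nkx2.5-Cre line, 896115 in the Nkx3.2-Cre line and 808006 in the Prox1-GFP line. Marker genes put 413 cells in a mesenchymal-like state, 336 in the 2 Cre lines with equal numbers in each and 77 in the Prox1-GFP line. They put 28 in a mesothelial-like state (5 of the Nkx2.5-Cre and 23 of the Nkx3.2-Cre line), and in the Prox1-GFP line 88 in an epithelial-like and 19 in an endocrine-like state, while 1 cell with immune markers was left out. Epithelial-like cells held all 12 epithelial markers at 5 CPM (counts per 1000000) or more, and mesenchymal-like cells held 9 of 12 mesenchymal and 0 of 12 epithelial markers at that level. A level below is the summed count of a gene over the cells of a group, per 1000000 summed counts. The 95% intervals are exact Poisson intervals for levels and exact binomial intervals for shares of cells. They cover counting error only.

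Gap43 was the most widely held of the 10. Its level in mesenchymal-like cells was 560 CPM (556 to 563) in the Nkx2.5-Cre line, 327 CPM (324 to 330) in the Nkx3.2-Cre line and 326 CPM (321 to 331) in the Prox1-GFP line, and 366 of 413 cells (88.6%, 85.2 to 91.5%) had it. Per cell, Gap43 ran from 0 to 2376 CPM with a median of 470 in the Nkx2.5-Cre line, from 0 to 1422 with a median of 288 in the Nkx3.2-Cre line, and from 0 to 1066 with a median of 257 in the Prox1-GFP line, so that the cells of the 3 lines overlapped over most of their range. Corrected for exon length, Gap43 stood apart from the other 9 genes at 283 CPM per kilobase over all mesenchymal-like cells, followed by Syt6 at 47.8, Pcp4l1 at 26.3, Slitrk5 at 17.8, Grik1 at 16.5, Nefm at 15.9, Nefl at 14.8, Camk2a at 4.27, Snap91 at 1.17 and Stmn2 at 0.91. The study had itself named Gap43 and Syt6 from these cells, so their high levels are no independent evidence.

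Among genes of membrane and vesicle, Syt6 had 308 CPM (305 to 311), 248 CPM (246 to 251) and 270 CPM (266 to 274) in the mesenchymal-like cells of the Nkx2.5-Cre, Nkx3.2-Cre and Prox1-GFP lines. Its per-cell median was 238, 168.7 and 142.9 CPM, its lowest value 0 and its highest 1288, 1301 and 1865. On the 6 plates its level ran from 207 to 342 CPM. Slitrk5 had 96.8, 100.5 and 68.6 CPM, with per-cell medians of 29.2, 64.9 and 29.1. It was found in 266 of 413 cells (64.4%, 59.58 to 69.03%).

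The glutamate receptor subunit Grik1 was held by fewer cells than Slitrk5. It had 133.9, 81.5 and 118.5 CPM in the 3 lines, and 196 of 413 cells (47.5%, 42.6 to 52.4%) held it, and the median over the cells that did was 160 CPM. The kinase subunit Camk2a had 36.2, 31.9 and 19.1 CPM and was held by 40.7% of cells (35.9 to 45.6%). Pcp4l1 was held by 78 cells (18.9%, 15.2 to 23%) and Snap91 by 53 (12.8%, 9.76 to 16.4%).

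The cytoskeletal genes ran in another order of lines. Nefl had 20.4 CPM (19.8 to 21.1) in the mesenchymal-like cells of the Nkx2.5-Cre line, 68.6 CPM (67.31 to 69.96) in the Nkx3.2-Cre line and 88.04 CPM (85.66 to 90.47) in the Prox1-GFP line. Nefm followed the same order with 44.4 CPM (43.4 to 45.4), 117.4 CPM (115.7 to 119.2) and 164.2 CPM (160.98 to 167.53). The lowest and median Nefl values per cell were 0 in all 3 lines and the highest 723, 1366 and 1118 CPM, while the Nefm median was 0, 1.44 and 78.96 CPM and the highest cell 748, 3547 and 1277. Nefl was thus carried by a minority of cells, 110 of 413 (26.6%, 22.4 to 31.2%), and Nefm by 44.8% of them (39.9 to 49.7%).

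Stmn2 was the rarest of the 10. It was found in 23 of 413 mesenchymal-like cells (5.57%, 3.56 to 8.24%), in 12 once every cell was thinned to 100000 counts, and 87.5% of its 1948 counts lay in 5 cells. A single Nkx3.2-Cre cell held 1130 of them, or 1425 CPM. The level of 11.9 CPM in the Nkx3.2-Cre line became 4.40 CPM without that cell. All mesenchymal-like cells of the Nkx2.5-Cre line together held 9.94 counts, 0.058 CPM (0.028 to 0.107).

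**Figure D1:**
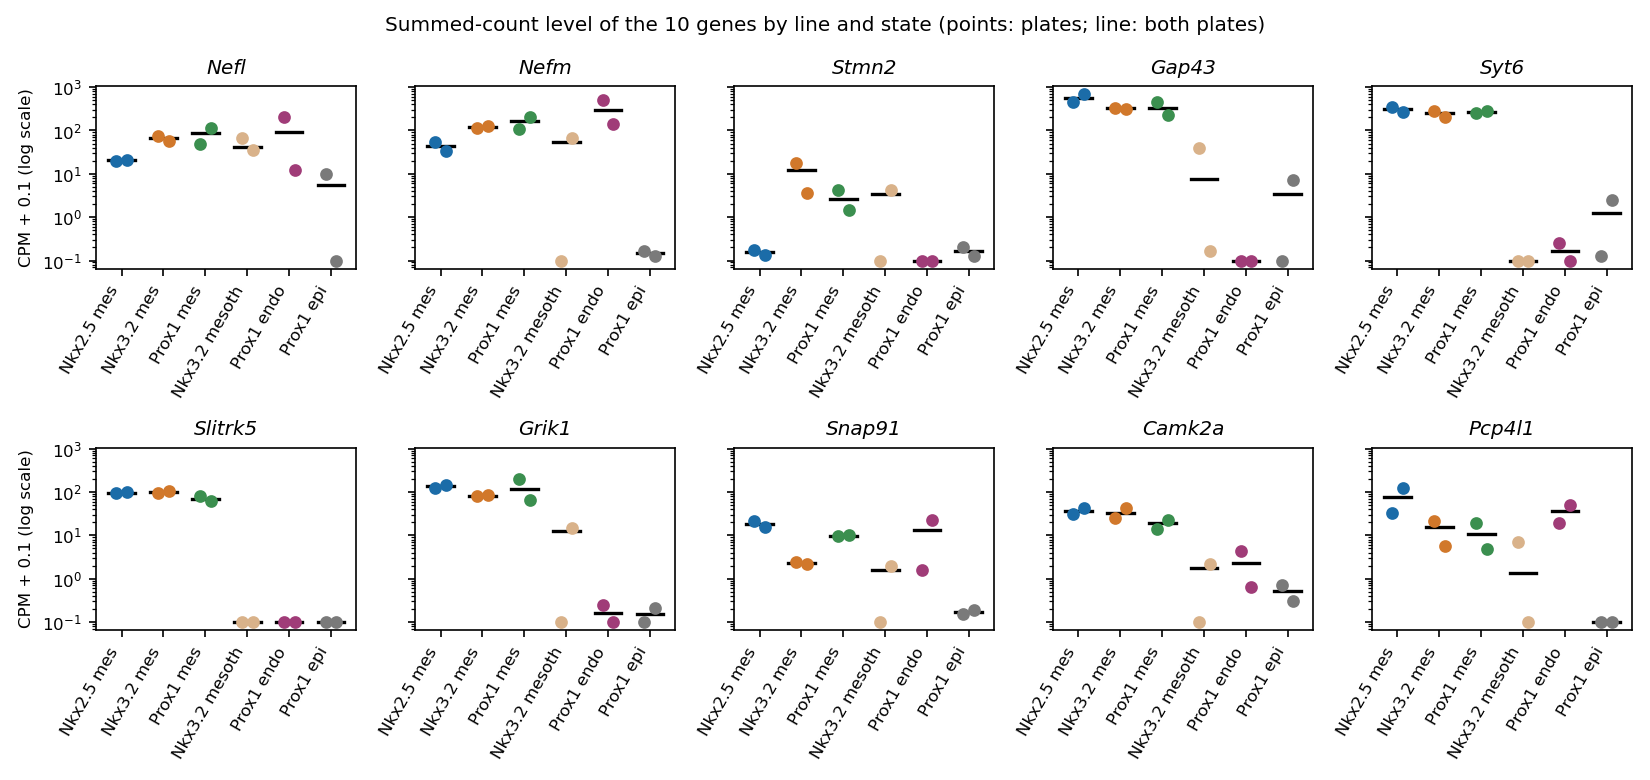
Level of each of the 10 genes as CPM of summed counts plus 0.1 (log axis) in 6 groups of cells by line and state. Points are the 2 plates of a line and bars the level over both plates. Gap43, Syt6, Slitrk5 and Grik1 lie between 60.6 and 683 CPM on all 6 plates of mesenchymal-like cells and at or near 0 in endocrine-like cells, whereas Nefl and Nefm reach 92.4 and 292 CPM there.

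How the 10 genes compare between mesenchyme and epithelium was asked within the Prox1-GFP line, where both came from the same plates. Because mesenchymal presence chose the genes, the counts are given as a description. A gene was compared if the mean of its 2 levels was 5 CPM or more, and called if the levels differed at least 2-fold and in the same direction on every pair of plates, 1 of each group. Of the 10 genes, 8 were higher in the 77 mesenchymal-like than in the 88 epithelial-like cells and 0 were lower, where 12.8% of 11453 genes were called higher, 1609 of the 11453 were called lower and 26.9% were called in either direction. Stmn2 and Snap91 were below the level filter with 2.53 and 9.73 CPM against 0.067 in each case.

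Slitrk5 and Pcp4l1 had 0 counts in the epithelial-like cells. Against a floor of 3 counts over the group, Slitrk5 was at least 1701-fold and Pcp4l1 at least 265-fold higher in mesenchymal-like cells. Without its highest cell, or without 1 of the 2 plates (at least 54.8-fold), Pcp4l1 fell below the level filter and was not called. For Slitrk5, 0 of 88 cells allows a share of up to 3.41% by a floor of 3 cells (4.11% by the exact binomial bound), where 45 of 77 mesenchymal-like cells (58.4%) had it. Nefm had 164.2 CPM against 0.047 CPM (0.011 to 0.128) and Grik1 118.5 against 0.054 CPM (0.015 to 0.138), which came from 3 and 4 epithelial-like cells with 1.5 counts or fewer each. The folds were 3480 and 2203.

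The epithelial counts of Gap43, Syt6 and Nefl lay mostly in 1 cell each, and the folds moved with the plate that held that cell. Gap43 was 96.2-fold higher in mesenchymal-like cells, and its 252 epithelial counts came from 3 cells, 1 of which had 219 CPM. Syt6 was 241-fold higher, with 81 of its 83.4 epithelial counts in 1 cell. Nefl was 16.6-fold higher, and 1 epithelial-like cell held 328 of the 396 counts and had 492 CPM with 0 counts of Nefm. Camk2a was 45.3-fold higher, with traces in 11 of 88 epithelial-like cells. Over the pairs of plates the fold ran from 4.92 to 1328 for Nefl, from 32.1 to 6122 for Gap43, from 108.6 to 3679 for Syt6 and from 22.3 to 112.9 for Camk2a, always above 2.

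Mesothelial-like cells, the 28 cells with markers of the organ's outer lining, held 8 of the 10 in some cells. Syt6 and Slitrk5 had 0 counts in all 28, which allows a share of up to 10.7% of cells by a floor of 3 cells (12.3% by the exact binomial bound). Over the 28 cells, Grik1 had 9.62 CPM in 5 cells, Snap91 5.08 CPM in 4, Stmn2 2.65 CPM in 5, Camk2a 1.32 CPM in 1 and Pcp4l1 1.12 CPM in 2. Without its highest cell Stmn2 had 0.18 CPM. In the 23 cells of the Nkx3.2-Cre line Gap43 had 7.36 CPM, from 3 cells, beside 327 CPM in the mesenchymal-like cells of the same plates. Nefl with 41.2 CPM and Nefm with 53.6 CPM were closer to the mesenchymal-like levels of that line, and they were held by 7 and 8 of the 23 cells. In Nefm, 678 of the 1027 counts came from 1 cell, and without it the level was 19.1 CPM.

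How many of the genes a cell carried together was counted at 10 CPM or more. The median was 4 in the mesenchymal-like cells of each line, with a range of 0 to 8 in the Nkx2.5-Cre line, 0 to 7 in the Nkx3.2-Cre line and 1 to 8 in the Prox1-GFP line. Endocrine-like cells had a median of 2 and a range of 0 to 4, and epithelial-like cells a median of 0 and a range of 0 to 2. In no cell were 9 or 10 of the genes present. At least 5 of the genes were held by 52 (30.95%) mesenchymal-like cells of the Nkx2.5-Cre line, 64 (38.1%) of the Nkx3.2-Cre line and 34 (44.2%) of the Prox1-GFP line, and by 0 of 19 endocrine-like and 0 of 88 epithelial-like cells.

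**Figure D2:**
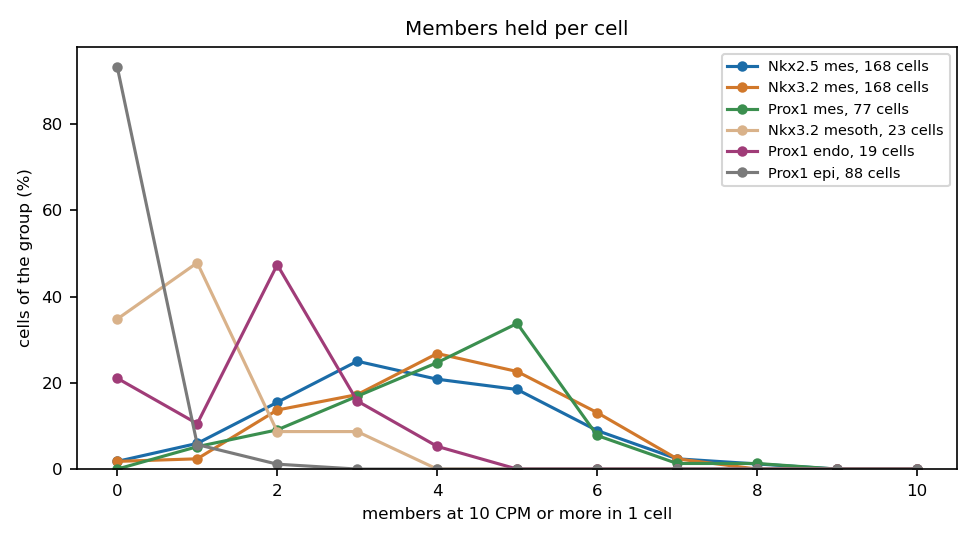
Share of cells (%) of each group that held a given number of the 10 genes at 10 CPM or more. Lines join the values of one group, mes standing for mesenchymal-like, mesoth for mesothelial-like, endo for endocrine-like and epi for epithelial-like. The mesenchymal-like cells of the 3 lines have a median of 4 genes, the endocrine-like cells of 2 and the epithelial-like cells of 0.

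Which mesenchymal cells held which gene was followed over the 9 clusters of the mesenchymal compartment. Clusters were built from variable genes other than the 10 genes, their relatives and the lists of neuronal, neural crest and REST corepressor genes. The 10 genes were chosen from these same cells, so differences between clusters are a description and no test. Gap43 was highest in cluster 1 (717 CPM), a cluster led by Plk2 with 66 of its 73 cells from the Nkx2.5-Cre line. It was lower in cluster 6 (226 CPM), in cluster 8 (200 CPM), in the mural-like cluster 5 (141.2 CPM, led by Acta2 and Tagln) and in the mesothelial-like cluster 7 (5.82 CPM). Cluster 1 also had the highest levels of Grik1 (181.1 CPM), Pcp4l1 (114.04 CPM), Slitrk5 (112.96 CPM) and Snap91 (35.2 CPM), so that 5 of the 10 genes peaked in it. Its leading genes included the Y-linked Ddx3y, Uty and Eif2s3y, and the part of line and Y-linked signal in these peaks was not tested.

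Syt6 was highest in cluster 8 (432 CPM), 15 cells led by Robo2 of which 13 came from the Nkx2.5-Cre line, and the same cells had 0 counts of Grik1, Pcp4l1 and Nefl. Camk2a was highest in cluster 4 (55.3 CPM), led by Etv1. The cytoskeletal genes peaked elsewhere. Nefl had 203 CPM in cluster 5 and 137.02 CPM in cluster 6, Nefm 277 and 335 CPM, and Stmn2 12.4 and 72.9 CPM.

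**Figure D3:**
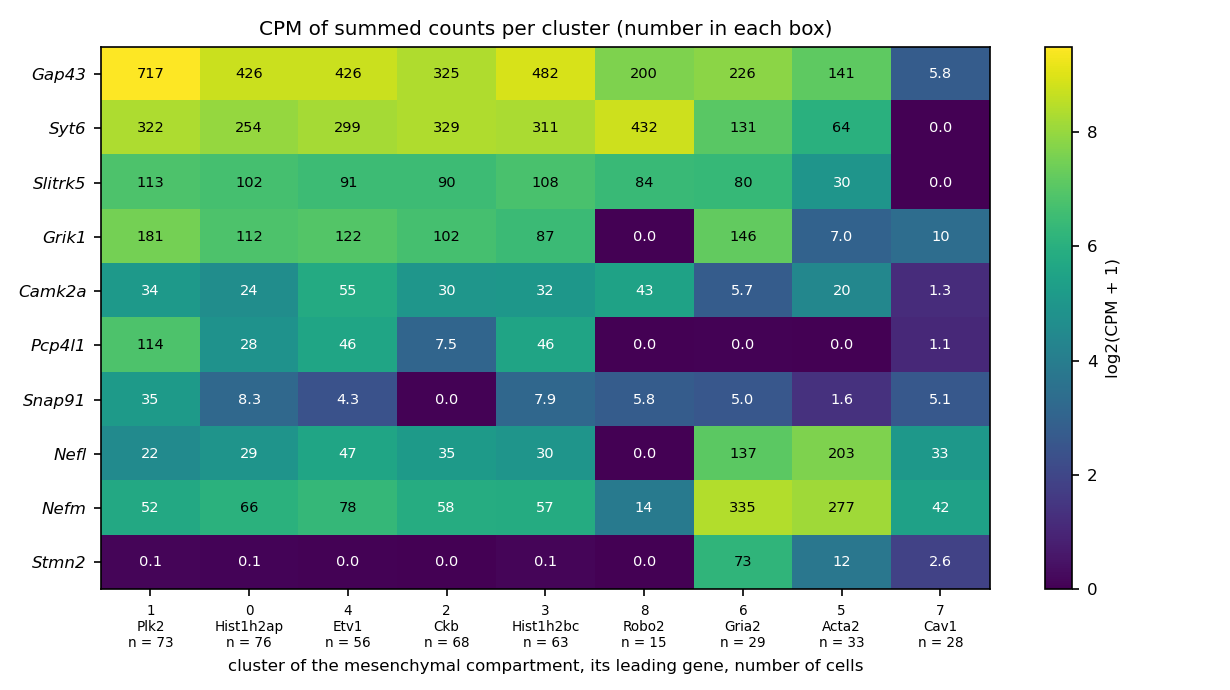
Level of the 10 genes (rows) as CPM of summed counts in the 9 clusters of the mesenchymal compartment (columns, with the leading gene and the number of cells), coloured on a log2(CPM + 1) scale. Nefl, Nefm and Stmn2 are highest in clusters 5 and 6, where Gap43 and Syt6 are lower than in clusters 0 to 4 and Pcp4l1 is at or near 0.

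Clusters 5 and 6 were then set against the other mesenchymal-like cells, a grouping made after these values were seen. Over their 62 cells Nefl had 175.4 CPM against 30.5 CPM in the other 351, Nefm 301 against 59.4 CPM and Stmn2 37.6 against 0.064 CPM. Gap43 had 176.4 against 471 CPM, Syt6 91.7 against 307 CPM and Pcp4l1 1 count against 47.99 CPM. Without the highest cell Stmn2 had 15.8 CPM in the 62. The lines differed in the size of this: Nefl had 244 against 29.9 CPM and Nefm 382 against 58.8 CPM in the Nkx3.2-Cre line, and 134.8 against 68.6 and 260 against 124.3 CPM in the Prox1-GFP line. Cells with Nefm and little Gap43 were most frequent there. Nefm at 10 CPM or more with Gap43 below it was seen in 14 of 33 cells of cluster 5 (42.4%, 25.5 to 60.8%), 8 of 29 of cluster 6 (27.6%, 12.7 to 47.2%) and 5 of the other 351 (1.42%, 0.46 to 3.29%).

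The 3 lines differed in what these clusters held. In the Nkx2.5-Cre line clusters 5 and 6 had only 6 cells, with 0 counts of Nefl and with Gap43 in all 6, at 140.6 to 721 CPM. In the Nkx3.2-Cre line cluster 5 was the larger (26 cells, beside 7 of cluster 6) and in the Prox1-GFP line cluster 6 (19 cells, beside 4). The 7 mural markers summed to 1370 CPM in cluster 5, 272 CPM in cluster 6 and 532 CPM in the other mesenchymal-like cells. More cells of these clusters had a G1 expression pattern, 27 of 33 and 28 of 29 beside 41.3% of the other 351, and the part of the cell cycle in the difference was not tested.

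**Figure D4:**
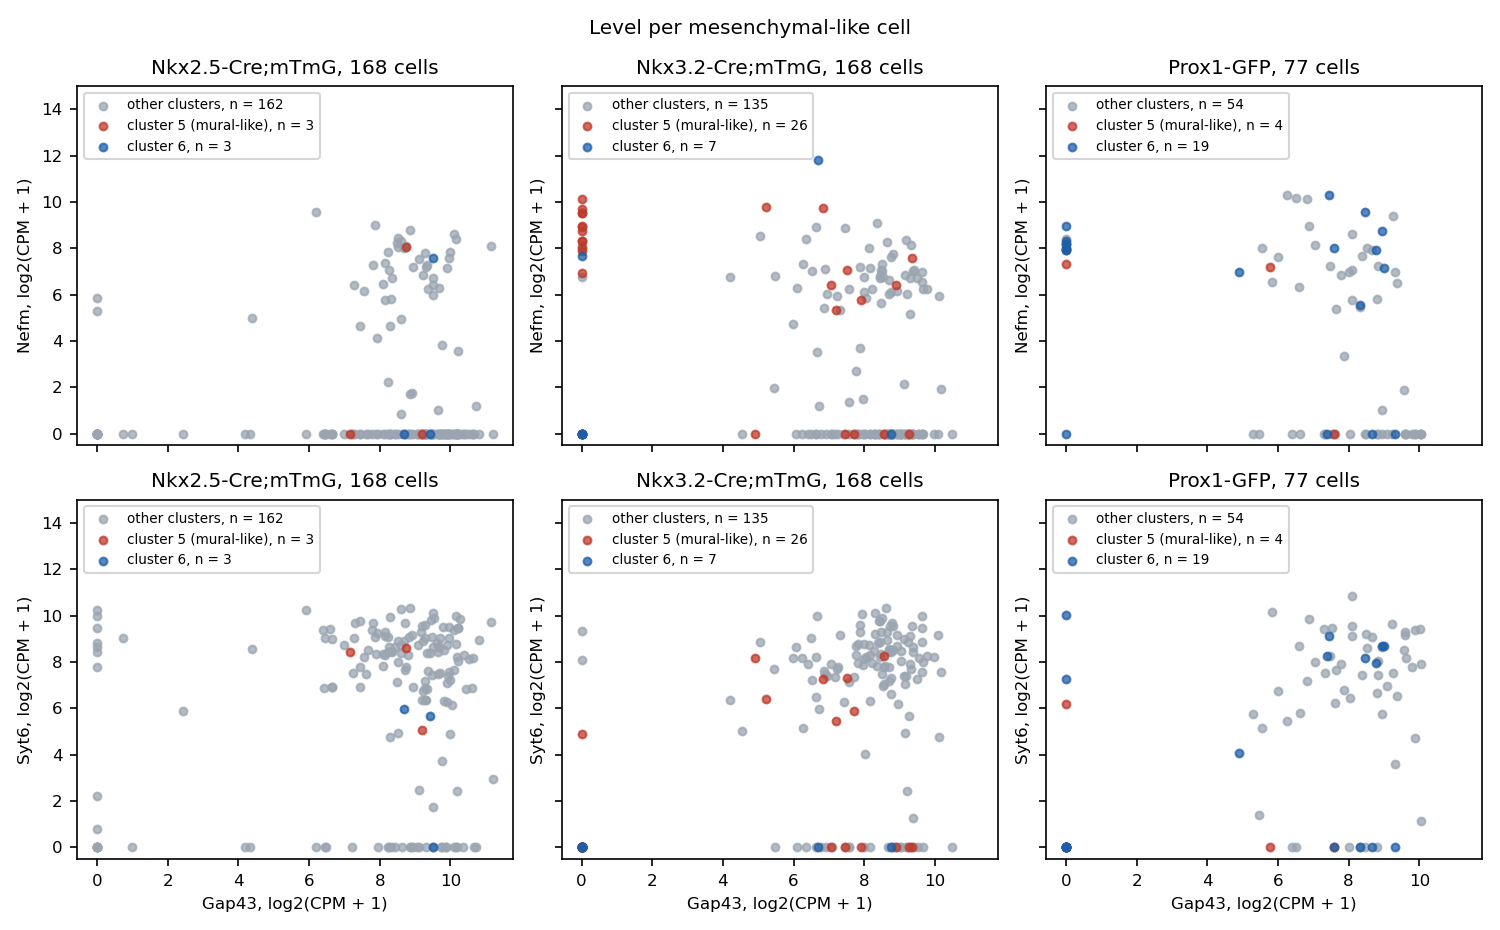
Each point is a mesenchymal-like cell, with Gap43 on the horizontal axis and Nefm (top) or Syt6 (bottom) on the vertical axis, both as log2(CPM + 1), by line. Cells of cluster 5 are red, of cluster 6 blue and of all other clusters grey. The column of red and blue points at 0 Gap43 in the top row holds the cells with Nefm and no Gap43, 14 of 33 in cluster 5 and 8 of 29 in cluster 6 over the 3 lines.

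Co-expression per cell was described by Spearman's rho between the per-cell CPM values within a line, over cells that share a library plate and differ in depth. Nefl and Nefm had the highest rho of any pair in the Nkx3.2-Cre line (0.48), with 0.40 in the Prox1-GFP and 0.21 in the Nkx2.5-Cre line. In the Prox1-GFP line rho was 0.09 on one plate and 0.56 on the other. Without clusters 5 and 6 it was 0.29 in the Nkx3.2-Cre line, where Gap43 and Grik1 then had the highest value (0.35), 0.44 in the Prox1-GFP and 0.21 in the Nkx2.5-Cre line. In the Nkx3.2-Cre line 38 of 54 cells with Nefl at 10 CPM or more also had Nefm (70.4%, 56.39 to 82.02%), and 40 of the cells without Nefl did (35.1%, 26.4 to 44.6%).

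In GRCm38, exons of Nefl and Nefm overlap by 1108 bases on opposite strands of chromosome 14 (Nefl at 68083863 to 68089095, Nefm at 68082590 to 68124846), 32.8% of the exon length of Nefl and 19.2% of that of Nefm. Whether reads were counted by strand is not stated, so part of the joint signal could not be told apart from shared reads. A Prox1-GFP cell of cluster 6 had 1277 CPM of Nefm and 0 of Nefl. Syt6 (chromosome 3, 103575231 to 103645569) shares 505 exon bases, 8.67% of its length, with the pseudogene Atg4a-ps on the other strand. The exons of the other 7 genes overlap those of no other gene. Gap43 lies on chromosome 16 at 42248442 to 42340651, Grik1 on the same chromosome at 87895900 to 88290265, Slitrk5 on chromosome 14 at 111675097 to 111683141, Stmn2 on chromosome 3 at 8509360 to 8561606, Snap91 on chromosome 9 at 86765923 to 86880654 and Pcp4l1 on chromosome 1 at 171173262 to 171196268.

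Gap43 and Grik1 had a rho of 0.17 in the Nkx2.5-Cre, 0.42 in the Nkx3.2-Cre and 0.35 in the Prox1-GFP line, and Syt6 and Slitrk5 0.21, 0.23 and 0.24. Gap43 and Syt6 had -0.02, 0.27 and 0.33, and in the Nkx3.2-Cre line this became 0.07 without clusters 5 and 6. Between Gap43 and the filament genes rho was negative in 2 of the lines: Nefm and Gap43 had 0.00, -0.27 and -0.43, and Nefl and Gap43 0.11, -0.31 and -0.33. Without clusters 5 and 6 these became -0.12 and -0.14 in the Nkx3.2-Cre line and -0.38 and -0.28 in the Prox1-GFP line. With all clusters, Nefm and Gap43 had -0.58 on 1 Prox1-GFP plate, and on the other no pair of genes was below -0.34. In mesenchymal-like cells Gap43 had 464 CPM on the first and 232 CPM on the second of these plates, and Nefm 110.8 and 200.4 CPM.

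**Figure D5:**
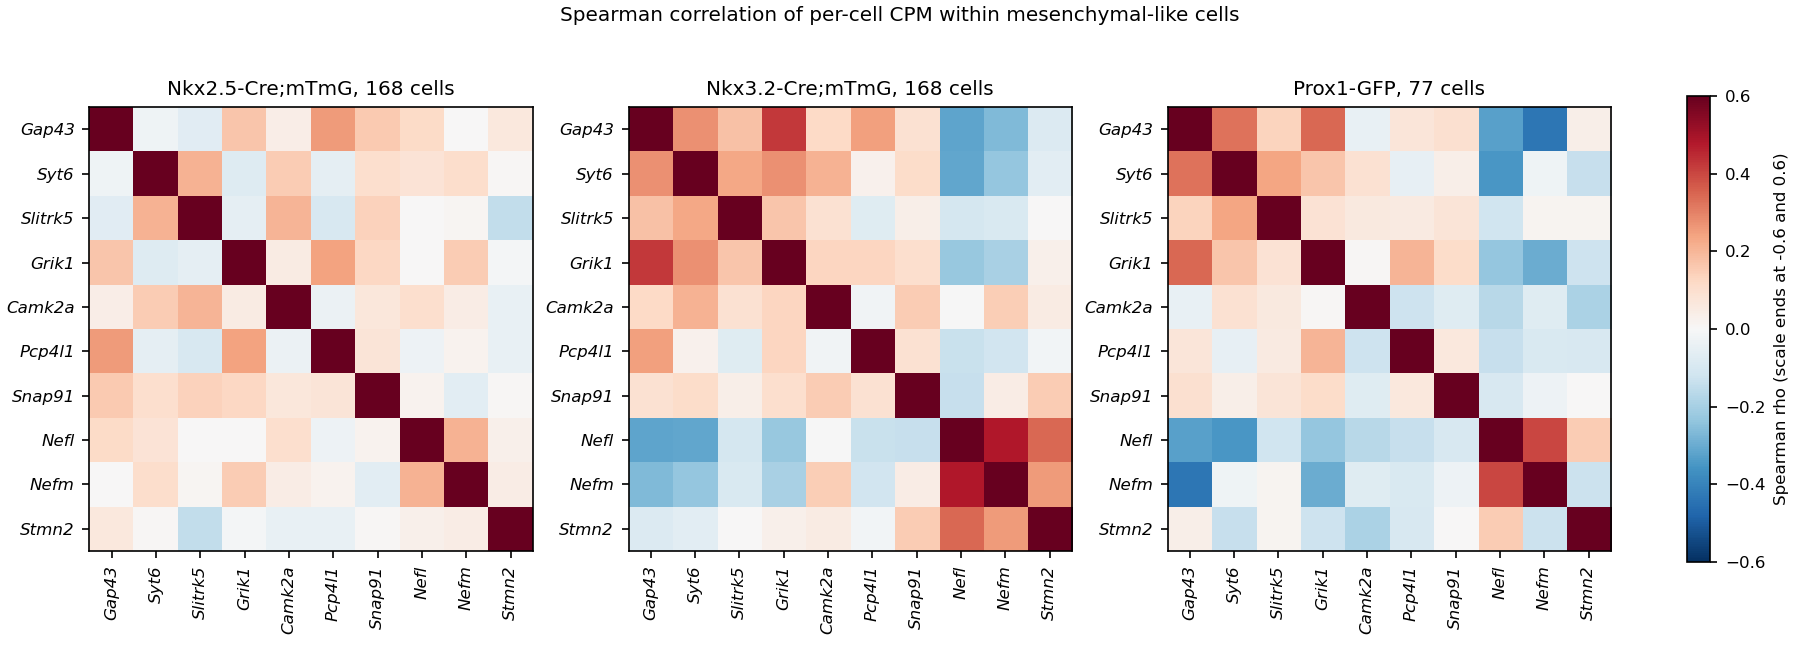
Spearman's rho between the per-cell CPM of each pair of the 10 genes in the mesenchymal-like cells of each line, red for positive and blue for negative values on a scale that ends at -0.6 and 0.6, with the diagonal at full red. In the Nkx3.2-Cre and Prox1-GFP lines Nefl and Nefm (0.48 and 0.40) are positive to each other and negative to Gap43. In the Nkx2.5-Cre line these values are 0.21, 0.11 and 0.00.

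Whether the mesenchyme marked by the 2 Cre drivers differed in these genes was compared in their mesenchymal-like cells by the same rule. Pcp4l1 and Snap91 were higher in the Nkx2.5-Cre line and Nefl, Nefm and Stmn2 higher in the Nkx3.2-Cre line, while Gap43, Syt6, Slitrk5, Grik1 and Camk2a were not called. That makes 2 of 10 genes higher and 3 lower in the Nkx2.5-Cre line, where 4.20% of 10980 genes were called higher and 5.63% lower. Snap91 (2.20 CPM in the Nkx3.2-Cre line) and Stmn2 (0.058 CPM in the Nkx2.5-Cre line) passed the level filter through 1 line alone. The count is thus a description. Any embryo, litter, sort or plate difference between the lines cannot be told apart from the driver.

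Pcp4l1 had 75.34 CPM (74.05 to 76.66) against 15.2 CPM (14.6 to 15.8), 4.97-fold higher, and was held by 51 against 18 cells. The plates within a line differed almost as much, with 32.4 and 121.5 CPM on the Nkx2.5-Cre and 21.4 and 5.50 CPM on the Nkx3.2-Cre plates, and the fold ran from 1.52 to 22.1 over the plate pairs. Without 1 Nkx2.5-Cre plate the fold was 2.14 or 8.01, and without 1 Nkx3.2-Cre plate 3.52 or 13.7. Snap91 had 18.5 against 2.20 CPM, 8.41-fold higher, with 15.6 to 21.3 CPM on the Nkx2.5-Cre and 2.10 to 2.27 CPM on the Nkx3.2-Cre plates. Its cells were few, 23 against 17, and 61.1% of the Nkx2.5-Cre counts came from 5 cells.

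Nefl was 3.36-fold and Nefm 2.65-fold lower in the Nkx2.5-Cre line. Nefl had 19.8 and 21.1 CPM on its plates beside 76.03 and 57.1 CPM on those of the Nkx3.2-Cre line, and Nefm 54.5 and 33.4 beside 111.9 and 125.9 CPM, so that the plates of the 2 lines did not overlap in either gene. Stmn2 was 205-fold lower, with a ratio of 0.0049 that became 0.0093 without the highest cell of each line. Without the plate that held that cell the Stmn2 ratio was 0.016, and in both cases Stmn2 fell below the level filter and was not called. Clusters 5 and 6, where the 3 genes were highest, held 6 Nkx2.5-Cre and 33 Nkx3.2-Cre cells. Without these clusters the ratio of the Nkx2.5-Cre to the Nkx3.2-Cre level was 0.712 for Nefl, 0.736 for Nefm and 0.532 for Stmn2, and 0 of the 10 genes were called lower.

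Among genes not called, Gap43 was 1.71-fold (plate pairs 1.33 to 2.17, and 2.09-fold and called without 1 Nkx2.5-Cre plate) and Grik1 1.64-fold (1.46 to 1.83) higher in the Nkx2.5-Cre line. Syt6 was 1.24-fold (0.987 to 1.65) and Camk2a 1.14-fold (0.723 to 1.68) higher, and Slitrk5 had a ratio of 0.963 (0.904 to 1.01). The ranges of Syt6, Camk2a and Slitrk5 include 1, so that no order of the lines can be read for them.

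The lines also differed in Y-linked genes, which were at 20 CPM or more in all but 24 mesenchymal-like cells of the Nkx2.5-Cre line, and in 2 cells of the Nkx3.2-Cre and 2 of the Prox1-GFP line. Embryo sex and line cannot be told apart between the lines. Within the Nkx2.5-Cre line cells with Y-linked signal and the 24 cells below that level had 57.96 and 179.3 CPM of Pcp4l1, 18.8 and 16.9 CPM of Snap91, and 528 and 750 CPM of Gap43. Nefl had 23.9 CPM and 0 counts, Nefm 50.8 and 5.62 CPM, and Camk2a 40.98 and 7.66 CPM.

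Levels of some of the 10 genes differed between cell cycle patterns, but not in the same direction in every line. In the Nkx3.2-Cre line Nefl had 104.7 CPM in 78 cells called G1 and 53.95 CPM in 56 called S, and Nefm 170.9 and 74.4 CPM. Gap43 ran the other way there, with 298 and 359 CPM, and Nefl was found in 32.1% of these G1 and 41.1% of these S cells. In the Nkx2.5-Cre line G1 and S cells had 25.4 and 16.5 CPM of Nefl, 50.6 and 32.2 of Nefm, and 594 and 555 of Gap43. In the Prox1-GFP line Nefl was lower in G1, with 76.96 and 103.04 CPM. Nefm had 182.9 and 127.7 CPM in these cells and Gap43 351 and 366 CPM. Cluster 5 and 6 cells, mostly G1, are part of these groups.

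Endocrine-like cells of the Prox1-GFP line were compared with the epithelial-like cells of the same plates. Nefl, Nefm, Snap91 and Pcp4l1 were higher in the 19 endocrine-like cells, which makes 4 of 10 genes higher and 0 lower, where 16.8% of 11647 genes were called higher and 22.4% lower. The other 6 had at most 3.39 CPM in either group and were below the level filter. Nefm, Snap91 and Pcp4l1 passed that filter through the endocrine-like cells alone, with 0.047, 0.067 and 0 CPM in the epithelial-like cells. They could thus only be called higher, and the count is a description. On simulated counts for this comparison the rule called 9.76% of unchanged genes. Gap43, Slitrk5 and Stmn2 had 0 counts in the endocrine-like cells, and Syt6 and Grik1 1 count each, which leaves them within the floor of 3 counts.

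Nefm had 292 CPM (284 to 301) in endocrine-like cells and was held by 14 of 19, with a per-cell median of 136.9 CPM and a range of 0 to 3087. Nefl had 92.4 CPM (87.7 to 97.3) in 8 of 19 cells. A single cell with 3087 CPM of Nefm and 1198 CPM of Nefl carried much of both, and without it the levels were 123.5 and 25.7 CPM. Over all plate pairs the Nefl fold over epithelial-like cells ran from 1.22 to 2325, and both ends set different plates against each other. Within 1 plate Nefl had 200 CPM in endocrine-like against 9.99 CPM in epithelial-like cells, and within the other 12.2 CPM against 0 counts. Under a stricter cell filter Nefl was not called.

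Pcp4l1 had 36.9 CPM (33.93 to 39.99) in 9 of 19 endocrine-like cells, at least 915-fold higher than in the epithelial-like cells, and Snap91 13.5 CPM (11.8 to 15.5) in 5 cells. Without its highest cell, or without 1 of the 2 plates (19.6-fold), Snap91 fell below the level filter and was not called, nor was it called with cells thinned to 100000 counts. The endocrine-like cells thus shared Nefl, Nefm, Pcp4l1 and Snap91 with part of the mesenchyme, and had none of Gap43, Slitrk5 or Stmn2 and 1 count each of Syt6 and Grik1. Rest, the repressor of neuronal genes, had 1.65 CPM (1.08 to 2.42) in endocrine-like, 156.6 CPM in epithelial-like and 180.6 CPM in the mesenchymal-like cells of all lines, where 356 of 413 (86.2%) held it. Of 10 genes for REST and its corepressors, all passed the level filter between mesenchymal-like and epithelial-like cells, 0 were higher in the mesenchymal-like cells and 1, Rcor2, was lower (11.7 against 29.4 CPM). Of all 11453 genes in that comparison, 12.8% were called higher and 1609 were called lower.

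Relatives of the 10 genes were compared with them as CPM per kilobase of exon over all mesenchymal-like cells. Of the intermediate filaments, vimentin (Vim) had 120.9 CPM per kilobase, and the neuronal filament genes Ina, Nefh and Prph had 0.13, 0.08 and 0.03, beside 14.8 of Nefl and 15.9 of Nefm. Stmn1 had 486 CPM per kilobase, where Stmn2 had 0.91. Of the membrane-bound proteins often grouped with Gap43 (283), Marcksl1 had 543 CPM per kilobase, Marcks 87.9 and Basp1 7.83. Slitrk6 had 16.96 CPM per kilobase beside 17.8 of Slitrk5, and Camk2g had 11.2 beside 4.27 of Camk2a. Picalm, the widely expressed relative of Snap91, had 4.57 beside 1.17. Of the synaptotagmins measured, Syt11 (3.33 CPM per kilobase) and Syt13 (2.92) came next after Syt6 (47.8). In endocrine-like cells Syt13 had 94.5 CPM per kilobase and Vim 0.013.

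Markers of nerve cells and glia were set beside the 10 genes. Over the 413 mesenchymal-like cells, Tubb3 had 0.67 CPM and was at 10 CPM or more in 4 cells, Elavl3 in 0 and Sox10 in 0. Elavl4, an RNA-binding protein of neurons, was at 10 CPM or more in 29 cells, and 296 CPM of it were in the Nkx3.2-Cre cell that held most of Stmn2, which had 3547 CPM of Nefm, 1340 of Nefl and 0 of Tubb3. Of 22 pan-neuronal genes, 8 were at 5 CPM or more in mesenchymal-like, 9 in epithelial-like and 16 in endocrine-like cells, with summed levels of 241, 249 and 932 CPM. Vamp2 had 58.7 CPM in mesenchymal-like cells. Between the mesenchymal-like and epithelial-like cells of the Prox1-GFP line, 11 of the 22 passed the level filter, of which 3 were higher (Rab3a and Vamp2 among them) and 4 lower (Ank2, Map2, Sv2a and Tubb3). Of 16 genes of neural crest and glia, 3 were at 5 CPM or more in mesenchymal-like cells, among them Ednrb with 95.03 and Ngfr with 13.9 CPM. In the Prox1-GFP comparison 5 of the 16 passed the level filter, of which 3 were higher in mesenchymal-like cells (Ednrb, Fabp7 and Ngfr) and 1 lower (Erbb3). Of all 11453 genes in that comparison, 12.8% were called higher and 1609 were called lower.

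The genes whose per-cell pattern was most like each of the 10 were ranked by mean Spearman's rho over the 6 plates, among 10346 genes in the 413 mesenchymal-like cells. Values were low throughout and no p is given. The closest were Tbx3, a T-box transcription factor, for Syt6 (0.34), followed by Nnat (0.30), and Flrt2 (0.32), Tbx3 (0.30) and Lef1 (0.29) for Grik1. Gap43 was closest to Itm2a (0.28), Ltbp1 (0.26) and Col6a1 (0.26), Slitrk5 to Kazald1 (0.26), and Nefl (0.26) and Nefm (0.22) both had the collagen gene Col14a1 among their 3 nearest. The nearest genes of Snap91, Camk2a and Pcp4l1 had 0.23 or less, and Stmn2 was in too few cells to be ranked.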

How the data were processed

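The authors deposited 3 tables of estimated counts per gene, 1 column per cell, made with kallisto and tximport after adapter trimming with Trim Galore 0.6.5, on mouse build GRCm38. The annotation release is not given in the sources used here, and 36.1% of the values above 0 were not whole. Smart-seq2 has no molecular identifiers. Cells were filtered as given above, summed per line and state, and scaled to CPM. Cells were clustered with Seurat 5.3.0 in R 4.3.3 (20 principal components, resolution 1.9), and states were named from marker lists. Each well held 1 cell, so no barcodes are shared. No doublet caller was run. With 1 sample per line there was no test, and a gene was called by a 2-fold or larger ratio, in 1 direction on all plate pairs, with a mean level of at least 5 CPM. The 2 plates of a line are not replicates. Library numbers of the Prox1-GFP plates form a run of their own, and batch and line cannot be told apart there. Genes named for likeness were the 3 nearest per gene. The 10 genes and the gene lists were chosen with earlier results of these data known. Scripts were tested on simulated data. In these the rule called 3.05% of unchanged genes between mesenchymal-like and epithelial-like cells, 1.30% between the Cre lines and 9.76% between endocrine-like and epithelial-like cells. The alternatives are given in the closing section.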

Additional observations from a re-analysis of the deposited data

How the results depend on the processing

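No paired analysis was possible because no result comes from a test. Of 87 summary values under alternative settings, 84 kept within 1.5 times the value reported. The other 3 concern the 2 Cre lines, and their settings were chosen after seeing the data. Without clusters 5 and 6 the number of genes lower in the Nkx2.5-Cre line was 0. With cells called G1 only (86 and 78 cells) 1 gene, Snap91, was higher. With cells under 20 CPM of Y-linked genes only (24 cells of the Nkx2.5-Cre line) 1 gene, Pcp4l1, was higher, and Slitrk5 was called lower where Stmn2 was not. The cause was not tested. Leaving out 1 plate at a time gave 2 to 3 genes higher and 2 to 3 lower between the Cre lines. Within 1 Prox1-GFP plate at a time, 7 to 8 genes were higher in mesenchymal-like cells and 3 to 4 in endocrine-like cells than in epithelial-like cells. Of the single-gene values, 279 stayed within the spread and 65 moved, and no called value turned in direction. Between the Cre lines, values that were not called did turn. The ratio of Camk2a (1.14) was 0.961 and 0.856 without 1 plate, 0.926 in G1 cells and 0.243 in cells under 20 CPM of Y-linked genes, that of Syt6 (1.24) was 0.943 in the last of these, and that of Slitrk5 (0.963) was 1.23 in G1 cells. Depth limits Stmn2 and Snap91 most, and the intervals cover counting error only.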
